A study of Homo sapiens with 6 samples.

Results

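Wnt regulators and feedback genes were followed in SNU-449, a long-established line of human hepatocellular carcinoma. The set held 10 genes, named by symbol, of the 58219 gene identifiers counted: DKK1, DKK3, LRP6, RNF43, ZNRF3, AXIN2, NKD1, CTNNB1, TCF7L2 and LEF1. Polyadenylated RNA was sequenced from 3 libraries of cells stably expressing Yes T348I, a gatekeeper mutant of the tyrosine kinase Yes, and from 3 libraries of cells stably expressing Yes WT. Both groups had received 100 nM dasatinib, a drug that blocks ABL and the SRC family of kinases, and no library without the drug was analysed here. The comparison asks which transcripts differ when the drug is present and the expressed Yes carries a change at the residue that commonly makes a kinase insensitive to such inhibitors. The labels give neither the number of clones behind a stable line nor whether each library had a culture of its own, and the p-values may therefore reflect no more than technical spread between libraries.

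In canonical Wnt signalling, a secreted Wnt protein binds a Frizzled receptor together with LRP5 or LRP6, which stops a complex built on axin, APC, GSK3 and casein kinase 1 from marking beta-catenin for destruction. Beta-catenin then enters the nucleus and activates genes through DNA-binding partners of the TCF/LEF family. Several of these target genes encode brakes on the pathway, among them AXIN2, NKD1, RNF43, ZNRF3 and DKK1, and activating mutations of CTNNB1 are frequent in liver cancer. Much of the control of beta-catenin is at the protein level, which transcript counts do not show.

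Gene totals ranged from 14392286 to 19608763 counts in Yes T348I and from 14360137 to 16117573 in Yes WT. The YES1 count does not part reads of the native gene from those of the introduced gene that align to it. YES1 stood at 382, 411 and 435 CPM (the count per 1e6 scaled counts) in the Yes T348I libraries and at 357, 368 and 367 CPM in the Yes WT libraries. It was thus higher in Yes T348I without overlap, by 0.17 on the log2 scale (edgeR adjusted p = 9.94e-05). Markers of mature liver cells were mostly absent. Of the hepatocyte markers, ALB, APOA1, APOB, TTR and HNF4A never exceeded 10 counts in a library, and the list summed to 100.4 to 103 CPM in Yes T348I and 117 to 119 CPM in Yes WT, nearly all of it FGB and CPS1. FGB and CPS1 were lower, by 0.21 and 0.20 on the log2 scale (edgeR adjusted p = 2.88e-04 and 9.92e-04). Leukocyte markers summed to 0.987 to 1.74 CPM in Yes T348I and 2.63 to 3.36 CPM in Yes WT. Endothelial markers summed to 0.480 to 0.564 CPM in Yes T348I and 1.14 to 1.53 CPM in Yes WT, and CD3E, TEK and CLDN5 had no count in any library. In Yes WT most of these sums was CD14 (2.43 CPM, 0.721 in Yes T348I) and PECAM1 (0.847 CPM, 0.194 in Yes T348I). These were the only genes of their lists tested, at no more than 41 and 16 counts, and were lower in Yes T348I (edgeR adjusted p = 5.09e-06 and 5.09e-04). Stellate cell and fibroblast markers summed to 825 to 881 CPM in Yes T348I and 1102 to 1164 CPM in Yes WT, and DCN and LUM were at no more than 3 counts. Most of this sum was COL1A2 (571 CPM in Yes T348I, 884 CPM in Yes WT), which was lower. ACTA2 was lower too, by 0.56 on the log2 scale (edgeR adjusted p = 0.0011), at 4.47 CPM in Yes T348I and 6.71 CPM in Yes WT. COL1A1 and RGS5 were slightly higher, by 0.15 and 0.14 on the log2 scale (edgeR adjusted p = 0.0042 and 0.0024), and the groups overlapped for COL1A1. Epithelial markers summed to 977 to 1098 CPM in Yes T348I and 721 to 759 CPM in Yes WT, with EPCAM at no more than 11 counts. Of this list KRT7 was higher (603 CPM in Yes T348I, 310 CPM in Yes WT), CDH1 was lower (1.47 CPM in Yes T348I, 3.35 CPM in Yes WT), and KRT8, KRT18 and KRT19 did not pass the test. The part of these marker differences in the results was not tested.

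Of the 10 Wnt genes, 8 had enough reads to be tested, and 5 of these were lower in Yes T348I: DKK1, RNF43, AXIN2, LRP6 and CTNNB1. In edgeR 0 of the 8 were higher, also at an unadjusted p under 0.05, and 0 were higher in DESeq2 or limma-voom. DKK3, ZNRF3 and TCF7L2 did not pass the threshold, an adjusted p under 0.05 in edgeR's quasi-likelihood test over all 14723 genes tested, and NKD1 and LEF1 had too few reads. Over all genes tested, 27.3% were lower and 28.0% higher by the same rule, 55.3% in all. The same 5 genes had no overlap between the groups, where 59.5% of all genes had none, so that the share of the 8 that passed in either direction, or had no overlap, was near that of all genes. Changes are given as the log2 fold change of Yes T348I over Yes WT, in log2 units. Their median over the 8 genes was -0.28, against -0.01 over all genes tested. With a minimum change of 1.5-fold added, 2 of the 8 were lower (DKK1 and RNF43) and none higher, while 9.19% of all genes were lower, 3.55% higher and 12.7% either. In bulk RNA, fewer cells with a transcript and less of it per cell cannot be told apart.

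DKK1 (chromosome 10, 52314296 to 52318042 on GRCh38, plus strand), a secreted antagonist that binds LRP5 and LRP6 and keeps Wnt from them, was the most abundant of the set per length and changed most. It had 10275, 7179 and 6793 counts in the Yes T348I libraries and 14154, 12629 and 13514 counts in the Yes WT libraries. Scaled, these were 527, 492 and 479 CPM in Yes T348I, against 865, 874 and 904 CPM in Yes WT. Every Yes T348I library lay far below every Yes WT library, and the libraries of a group differed little. The mean was 499 ± 24.7 CPM in Yes T348I and 881 ± 20.3 CPM in Yes WT (SD, n = 3 each), a change of -0.82 log2 units (standard error of the log2 fold change, SE, 0.03, 95% interval -0.89 to -0.75, edgeR adjusted p = 3.12e-23). DKK1 in Yes T348I was thus at 0.567 of its Yes WT level, and 93.2% of all genes tested had a smaller change in either direction. DKK1 alone made up 51.2% to 53.1% of the summed CPM of the 10 genes in Yes T348I libraries and 61.8% to 62.3% in Yes WT libraries. Without DKK1 the sum was 456 to 465 CPM in Yes T348I and 530 to 548 CPM in Yes WT.

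The promoter windows of DKK1 and RNF43 are shown because these are the 2 members that were lower by at least 1.5-fold. Each holds the 250 bases upstream of the gene start given by RefSeq (GRCh38.p14), on the strand of the gene. Capitals mark matches on either strand to the TCF/LEF motif (CTTTG followed by 2 bases that are each A or T) or to the TEAD motif (GGAATG). TEAD proteins are the DNA-binding partners of YAP and TAZ.
DKK1, chr10:52314031-52314280, plus strand: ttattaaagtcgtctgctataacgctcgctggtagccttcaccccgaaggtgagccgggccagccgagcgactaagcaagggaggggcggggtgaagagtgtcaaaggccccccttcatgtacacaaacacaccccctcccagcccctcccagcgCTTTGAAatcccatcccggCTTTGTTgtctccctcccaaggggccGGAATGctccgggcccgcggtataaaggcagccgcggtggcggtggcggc
RNF43, chr17:58417535-58417784, minus strand: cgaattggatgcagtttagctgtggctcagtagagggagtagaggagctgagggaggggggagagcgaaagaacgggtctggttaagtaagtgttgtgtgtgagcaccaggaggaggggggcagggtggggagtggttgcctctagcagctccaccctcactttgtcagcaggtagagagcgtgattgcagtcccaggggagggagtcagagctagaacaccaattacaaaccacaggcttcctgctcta
In the DKK1 window the TCF/LEF word occurred at 2 places, beginning 95 and 76 bases upstream of the start, and the TEAD word at 1 place, beginning 50 bases upstream. None of the matches overlapped another. In the RNF43 window at the outer start neither word occurred, and a second RNF43 window at an inner start held 2 TEAD words. Among all 35116 windows of this length in the table, 12.0% held a TCF/LEF match and 11.9% a TEAD match. Of the 10 genes, 5 had a window (DKK1, RNF43, CTNNB1, TCF7L2 and LEF1, 8 windows in all), and 2 of these windows held a TCF/LEF match and 2 a TEAD match. The second TCF/LEF match was in 1 of the 3 windows of TCF7L2, and no match to either motif was found in those of CTNNB1 and LEF1. No window was used for DKK3, LRP6, ZNRF3, AXIN2 and NKD1. A match describes these letters and says nothing of binding.

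DKK3 (chromosome 11, 11963106 to 12009769, minus strand), a divergent dickkopf protein whose effect on Wnt signalling varies between settings, did not follow DKK1. It had 20.3, 17.8 and 20.5 CPM in Yes T348I libraries and 21.1, 19.9 and 20.7 CPM in Yes WT libraries, so the groups overlapped. Its log2 fold change was -0.07 (SE 0.07, 95% interval -0.22 to 0.08, adjusted p = 0.42). The interval of DKK3 lies wholly above that of DKK1. The difference between both changes was not tested in a model of its own.

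At the receptor, LRP6 (chromosome 12, 12116025 to 12267012, minus strand), the co-receptor that DKK1 blocks, was lower by a modest amount. It had 71.3, 78.4 and 72.6 CPM in Yes T348I libraries, against 94.0, 84.5 and 93.2 CPM in Yes WT libraries. Replicate 2 was the highest of Yes T348I and the lowest of Yes WT, and the groups still did not overlap. The log2 fold change was -0.29 (SE 0.05, 95% interval -0.39 to -0.20, adjusted p = 6.24e-07), or 0.816 of the Yes WT level.

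RNF43 (chromosome 17, 58352500 to 58417595, minus strand) and ZNRF3 (chromosome 22, 28883592 to 29057487, plus strand) encode related membrane ubiquitin ligases that clear Frizzled from the cell surface. RNF43 rested on few reads, with 61, 62 and 45 counts in Yes T348I libraries and 94, 76 and 72 counts in Yes WT libraries. These were 3.13, 4.25 and 3.17 CPM in Yes T348I, against 5.74, 5.26 and 4.81 CPM in Yes WT. The groups stood apart by a small margin between Yes T348I replicate 2 and Yes WT replicate 3. RNF43 fell by 0.60 log2 units (SE 0.15, 95% interval -0.91 to -0.29, adjusted p = 9.43e-04), close to the 1.5-fold limit. The change was under 1.5-fold when Yes T348I replicate 1 was left out (log2 fold change -0.50), Yes T348I replicate 3 (-0.54) or Yes WT replicate 1 (-0.53), and remained past the adjusted p threshold in each. In GENCODE 29, 57.6% of the exon bases of RNF43 also belong to AC004687.2 on the same strand. That identifier is absent from the genes counted, so the RNF43 count may hold reads of its transcript. SUPT4H1, which was counted, shares 1.91% of these bases, and the assignment of reads to RNF43 in the shared stretches is uncertain.

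ZNRF3 had 27.7, 23.3 and 25.7 CPM in Yes T348I libraries and 25.8, 28.7 and 28.0 CPM in Yes WT libraries. The groups overlapped, and its log2 fold change was -0.10 (SE 0.07, 95% interval -0.23 to 0.04, adjusted p = 0.24). ZNRF3 stood at a higher read density than RNF43 in both groups, with 3.67 ± 0.317 CPM per kilobase of exon in Yes T348I and 3.95 ± 0.215 in Yes WT, against 0.469 ± 0.0848 and 0.703 ± 0.0619 for RNF43 (SD, n = 3 each).

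Inside the cell, AXIN2 (chromosome 17, 65528563 to 65561647, minus strand), a scaffold of the destruction complex widely read as a marker of beta-catenin activity, was lower. It had 116, 96 and 86 counts in Yes T348I libraries and 132, 125 and 114 counts in Yes WT libraries. These were 5.95, 6.58 and 6.06 CPM in Yes T348I, against 8.07, 8.65 and 7.62 CPM in Yes WT, without overlap. The log2 fold change was -0.39 (SE 0.12, 95% interval -0.63 to -0.16, adjusted p = 0.0039), or 0.762 of the Yes WT level. In GENCODE 29, 25.2% of the exon bases of AXIN2 also belong to AC004805.1 on the same strand, which had no count in any library, and reads that fit both are left out of the counts of either gene.

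NKD1 (chromosome 16, 50548330 to 50649249, plus strand), which binds Dishevelled and damps the pathway, was barely detected. It had 4, 0 and 1 counts in Yes T348I libraries and 4, 2 and 3 counts in Yes WT libraries, too few for the test. Summed over the group this was 0.104 CPM in Yes T348I (exact Poisson 95% interval 0.0336 to 0.242) and 0.197 CPM in Yes WT (0.0899 to 0.373). The intervals overlap, and a difference was not detectable at this depth. The intervals cover counting error only.

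CTNNB1 (chromosome 3, 41194741 to 41260096, plus strand), which encodes beta-catenin, was slightly and evenly lower. It had 281, 277 and 273 CPM in Yes T348I libraries, against 327, 329 and 338 CPM in Yes WT libraries. The spread within a group was the smallest of the tested members in both groups, at 1.34% of the mean in Yes T348I and 1.71% in Yes WT. CTNNB1 fell by 0.26 log2 units (SE 0.03, 95% interval -0.32 to -0.19, adjusted p = 5.01e-09), or to 0.836 of the Yes WT level.

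TCF7L2 (chromosome 10, 112950250 to 113167678, plus strand), a TCF/LEF family partner of beta-catenin, had 55.7, 58.2 and 54.7 CPM in Yes T348I libraries and 53.5, 53.9 and 55.4 CPM in Yes WT libraries. The groups overlapped, and its log2 fold change was 0.05 (SE 0.05, 95% interval -0.05 to 0.15, adjusted p = 0.38). LEF1 (chromosome 4, 108047545 to 108168956, minus strand), another family member and a common beta-catenin target, had 0 counts in all 6 libraries. A count of 0 allows up to 0.0764 CPM over the Yes T348I group and 0.0806 CPM over the Yes WT group (upper end of the exact Poisson 95% interval). Of the other TCF genes, TCF7L1 had 3.60 ± 0.235 CPM per kilobase in Yes T348I and 3.56 ± 0.375 in Yes WT, and TCF7 had 0.231 ± 0.0481 in Yes T348I and 0.295 ± 0.0188 in Yes WT (SD, n = 3 each). TCF7L2, at 8.34 ± 0.263 CPM per kilobase in Yes T348I and 8.05 ± 0.148 in Yes WT, was the highest of the 4 in both groups. TCF7L1 and TCF7 did not pass the test either, with log2 fold changes of 0.0040 (95% interval -0.17 to 0.17, adjusted p = 0.97) and -0.33 (95% interval -0.72 to 0.05, adjusted p = 0.14). Counts per gene hold all transcript forms together, so shorter forms of TCF7L2 that lack the beta-catenin binding end cannot be seen.

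**Figure D1:**
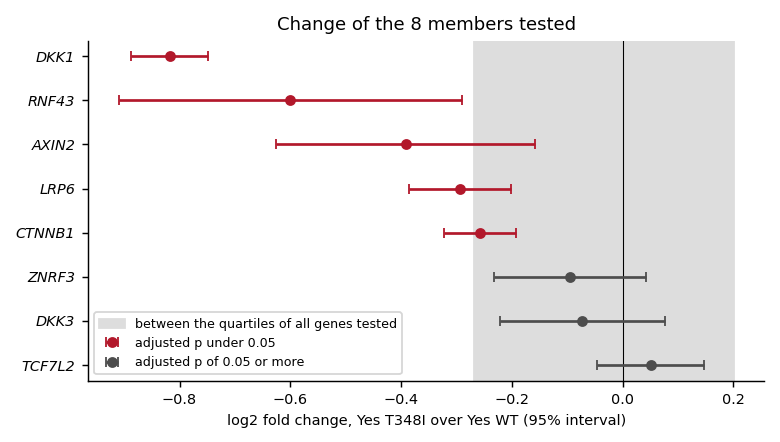
Log2 fold change of Yes T348I over Yes WT (horizontal axis) with its 95% interval for the 8 genes tested. Red points passed an adjusted p of 0.05 and grey points did not; the grey band lies between the quartiles of all genes tested, -0.27 and 0.20. The points of DKK1, RNF43, AXIN2 and LRP6 lie left of the band, that of LRP6 (-0.29) only just, and the intervals are widest in RNF43 and AXIN2, the tested members with the fewest reads.

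Per kilobase of annotated exon, the levels of the set fell in nearly the same order in both groups. DKK1 led with 226 ± 11.2 CPM per kilobase in Yes T348I and 399 ± 9.21 in Yes WT, and CTNNB1 came next with 23.2 ± 0.312 in Yes T348I and 27.8 ± 0.474 in Yes WT. TCF7L2 and LRP6 followed. In Yes T348I, TCF7L2 (8.12 to 8.63) stood above LRP6 (6.89 to 7.58), whereas in Yes WT their ranges met (7.94 to 8.22 for TCF7L2 and 8.17 to 9.09 for LRP6). DKK3 and ZNRF3 overlapped in both groups, at 3.51 to 4.06 and 3.35 to 3.98 in Yes T348I and at 3.93 to 4.17 and 3.71 to 4.12 in Yes WT. AXIN2 (1.19 ± 0.0648 in Yes T348I, 1.55 ± 0.0986 in Yes WT), RNF43, NKD1 and LEF1 closed the order. The exon length joins all annotated transcripts, so genes with long alternative exons, such as CTNNB1 and NKD1, are understated. AXIN2 may be understated too, because reads that also fit AC004805.1 were left out.

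The 3 genes named next had a course over the 6 libraries closest to that of DKK1, by the root mean square difference of log2 CPM centred on each gene's own mean, among 9630 named genes of at least 10 CPM. They were LRP10, a member of the LDL receptor family (0.027), STAT2, a transducer of type I interferon signals (0.029), and PHF21A, a histone-binding component of a demethylase complex (0.031). Their levels were 179 ± 7.67, 37.1 ± 1.72 and 28.4 ± 1.18 CPM in Yes T348I, against 314 ± 2.06, 63.9 ± 0.639 and 50.5 ± 0.618 CPM in Yes WT (SD, n = 3 each). As the 6 libraries form 2 groups, the likeness is mainly that of a fall of the same size.

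The rest of the pathway was read from 7 lists with 113 further genes, of which 79 were tested. Of these 18 were higher and 30 lower in Yes T348I, 22.8% and 38.0% of those tested, beside 28.0% and 27.3% of all genes. The counts of the single lists below stand beside the same shares of all genes. Across 15 alternatives of the processing, 17 to 19 of the further genes were higher and 22 to 36 lower. Over all genes, 3522 to 4316 were higher and 3134 to 4626 lower in these alternatives. Their median log2 fold change was -0.09, against -0.01 over all genes. By size, 5 of the 79 were higher and 8 lower by at least 1.5-fold, a rule that 3.55% and 9.19% of all genes passed.

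Among Wnt ligands and their export factors, 2 well-expressed ligands were higher. WNT5B, a ligand known mainly for signalling without beta-catenin, had 112, 108 and 107 CPM in Yes T348I libraries, against 52.7, 52.7 and 53.0 CPM in Yes WT libraries, a change of 1.05 log2 units (SE 0.04, adjusted p = 1.33e-23). WNT7B, which can activate beta-catenin in other tissues, had 253, 227 and 245 CPM in Yes T348I libraries and 171, 168 and 170 CPM in Yes WT libraries, a change of 0.51 log2 units (SE 0.04, adjusted p = 1.28e-15). In both genes every Yes T348I library was above every Yes WT library. WLS, which carries Wnt proteins to the cell surface, fell by 0.37 log2 units (SE 0.06, adjusted p = 3.82e-07). Of 21 genes on the list 9 were tested, 3 rose and 3 fell, with a median log2 fold change of -0.24. Besides those named, WNT10B rose by 0.73 from a low level and WNT5A and WNT3 fell by 0.51 and 0.24 on the log2 scale, WNT3 by a narrow margin (adjusted p = 0.047). With DESeq2, or without Yes T348I replicate 1 or 2 or Yes WT replicate 1 or 3, 2 genes of the list were lower. Of the 21, 11 had at most 10 counts in any library.

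Frizzled receptors moved in both directions. FZD2 had 270, 227 and 255 CPM in Yes T348I libraries, against 161, 152 and 162 CPM in Yes WT libraries, a change of 0.67 log2 units (SE 0.04, adjusted p = 2.24e-17). FZD4, which also serves the ligand norrin, had 15.8, 16.0 and 18.1 CPM in Yes T348I libraries, against 25.7, 29.2 and 28.6 CPM in Yes WT libraries, and fell by 0.74 log2 units (SE 0.07, adjusted p = 1.44e-11). FZD7 rose by a change of 0.36 log2 units (SE 0.06, adjusted p = 1.63e-06). Of 12 receptor genes tested, 4 rose and 5 fell, with a median log2 fold change of -0.13. LRP5, the other co-receptor, was among those that fell, by 0.19 (SE 0.06, adjusted p = 0.0064), beside the 0.29 of LRP6.

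KREMEN1 and LGR4, partner genes of DKK1 and of the ubiquitin ligases, were lower in Yes T348I. KREMEN1, a membrane protein that together with DKK1 takes LRP6 off the surface, had 15.8, 14.7 and 15.7 CPM in Yes T348I libraries, against 21.5, 23.4 and 24.3 CPM in Yes WT libraries, a change of -0.58 log2 units (SE 0.07, adjusted p = 1.34e-08). LGR4, the R-spondin receptor through which RNF43 and ZNRF3 are neutralised, had 159, 166 and 153 CPM in Yes T348I libraries, against 308, 307 and 319 CPM in Yes WT libraries. It fell by 0.97 log2 units (SE 0.03, adjusted p = 1.44e-25), beside -0.82 for DKK1 (the difference between the genes was not tested), and no library of one group came near the other. RSPO3 was the other tested gene of the R-spondin list, at no more than 23 counts in a library, and did not pass (adjusted p = 0.12).

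Of 17 further antagonists and DKK receptors, 7 were tested, of which 1 rose and 4 fell, with a median log2 fold change of -0.18. SFRP1, a secreted decoy for Wnt, had 274, 269 and 275 CPM in Yes T348I libraries and 284, 295 and 295 CPM in Yes WT libraries, a small fall of 0.10 on the log2 scale (SE 0.03, adjusted p = 0.012). NOTUM, an enzyme that strips the lipid from Wnt, rose by 0.68 (SE 0.27, adjusted p = 0.028) at 1.71 CPM in Yes T348I and 1.07 CPM in Yes WT. Both calls were fragile. That of SFRP1 was lost without Yes WT replicate 2 (adjusted p = 0.054) or replicate 3 (0.068). That of NOTUM was lost without Yes T348I replicate 1 (0.062) or 2 (0.10), or Yes WT replicate 1 (0.12) or 2 (0.11). The other members that fell were FRZB and KREMEN2, both by a narrow margin. FRZB had 3 to 14 counts in a library (log2 fold change -0.99, edgeR adjusted p = 0.035). The groups overlapped for KREMEN2 (log2 fold change -0.41, edgeR adjusted p = 0.040). Leaving out any library but Yes T348I replicate 1 left 2 of the list lower. DKK2, DKK4, SFRP2, WIF1, TRABD2B and APCDD1 had 0 counts in all libraries.

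**Figure D2:**
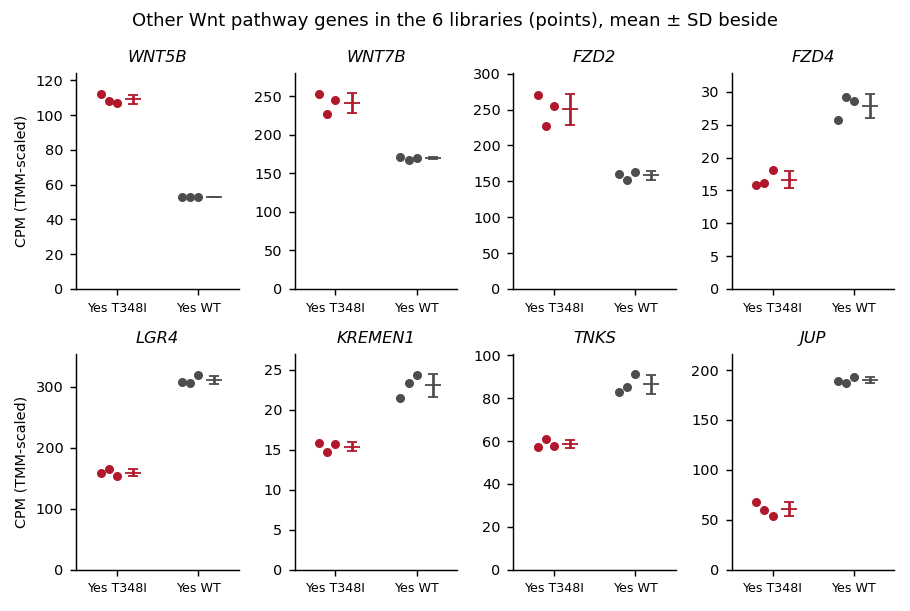
CPM (vertical axis from 0) of 8 further pathway genes in the 3 Yes T348I libraries (red, left) and the 3 Yes WT libraries (grey, right), with mean and SD beside the points. WNT5B, WNT7B and FZD2 are higher in Yes T348I, and FZD4, LGR4, KREMEN1, TNKS and JUP lower, none with overlap between the groups.

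Most genes of the destruction complex did not pass the test. Of 21 genes of this list, all tested, 3 rose and 5 fell (3 and 8 with upper quartile factors or library size only), with a median log2 fold change of 0.03. That was 14.3% higher and 23.8% lower, beside 28.0% and 27.3% of all genes. APC2 fell most, by 0.88 log2 units (edgeR adjusted p = 4.41e-05), at 2.28 CPM in Yes T348I and 4.15 CPM in Yes WT. APC, TNKS2 and RNF146 fell by 0.19, 0.18 and 0.23 on the log2 scale, and GSK3A rose by 0.22. TNKS, which encodes tankyrase, an enzyme that marks axin for degradation, had 57.4, 60.8 and 57.9 CPM in Yes T348I libraries, against 82.9, 85.3 and 91.4 CPM in Yes WT libraries, and fell by 0.56 log2 units (SE 0.05, adjusted p = 7.84e-14). CSNK1A1, the casein kinase that primes beta-catenin for destruction, and AMER1, a scaffold of the complex, rose by 0.23 (SE 0.04, adjusted p = 1.83e-06) and 0.40 log2 units (SE 0.08, adjusted p = 3.04e-05). AXIN1, the paralogue of AXIN2 that is not known as a feedback target, had 6.46 ± 0.618 CPM in Yes T348I and 6.33 ± 0.606 CPM in Yes WT (SD, n = 3 each), with a log2 fold change of 0.03 (95% interval -0.22 to 0.28, adjusted p = 0.86).

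The largest change on the list of nuclear partners of beta-catenin was in JUP, which was placed there as a relative. It encodes plakoglobin, a close relative of beta-catenin that sits in desmosomes and adherens junctions, and it had 67.8, 59.7 and 54.2 CPM in Yes T348I libraries, against 189, 187 and 193 CPM in Yes WT libraries. JUP fell by 1.64 log2 units (SE 0.05, adjusted p = 6.07e-29), to 0.322 of its Yes WT level, and 99.3% of all genes tested had a smaller change. TLE4, a corepressor that occupies TCF in the absence of beta-catenin, rose by a change of 0.38 log2 units (SE 0.04, adjusted p = 1.24e-10), and BCL9, a coactivator of beta-catenin, fell by 0.32 (SE 0.05, adjusted p = 2.31e-07). Of the 14 genes of the list, all tested, 2 rose and 6 fell, with a median log2 fold change of -0.09. Leaving out Yes WT replicate 3 made it 2 lower, and leaving out Yes T348I replicate 2 or Yes WT replicate 1 made it 3.

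The further genes described as beta-catenin targets split evenly. Their list leaves out the members. Of the members named above as targets, DKK1, RNF43 and AXIN2 were lower, ZNRF3 did not pass, and NKD1 and LEF1 were not tested. Of 22 genes on the target list, some of them on other lists too, 16 were tested, 6 rose and 6 fell, with a median log2 fold change of -0.07. That was 37.5% higher and 37.5% lower, beside 28.0% and 27.3% of all genes. CCND1, MYC, SOX9, EPHB2, JUN and NOTUM rose, NOTUM by the fragile call described above. BMP4, BAMBI, CD44, GLUL, CYP2E1 and SLC1A2 fell. SLC1A2 had the largest change of the list, -1.58 log2 units, at 1.02 CPM in Yes T348I and 3.15 CPM in Yes WT (edgeR adjusted p = 2.16e-07). GLUL fell by 0.24 and CYP2E1, at a low level, by 0.74. The cyclin gene CCND1 had 515, 527 and 545 CPM in Yes T348I libraries, against 261, 261 and 259 CPM in Yes WT libraries, while BMP4, a secreted growth factor, had 27.7, 26.4 and 23.8 CPM in Yes T348I libraries, against 58.1, 63.7 and 64.0 CPM in Yes WT libraries. BAMBI, a decoy receptor of the TGF-beta family, fell by 0.58 log2 units (SE 0.04, adjusted p = 3.78e-17). Many of these genes are also controlled by other pathways. LGR5, SP5, RHBG, CYP1A2 and APCDD1 had at most 4 counts in any library.

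**Figure D3:**
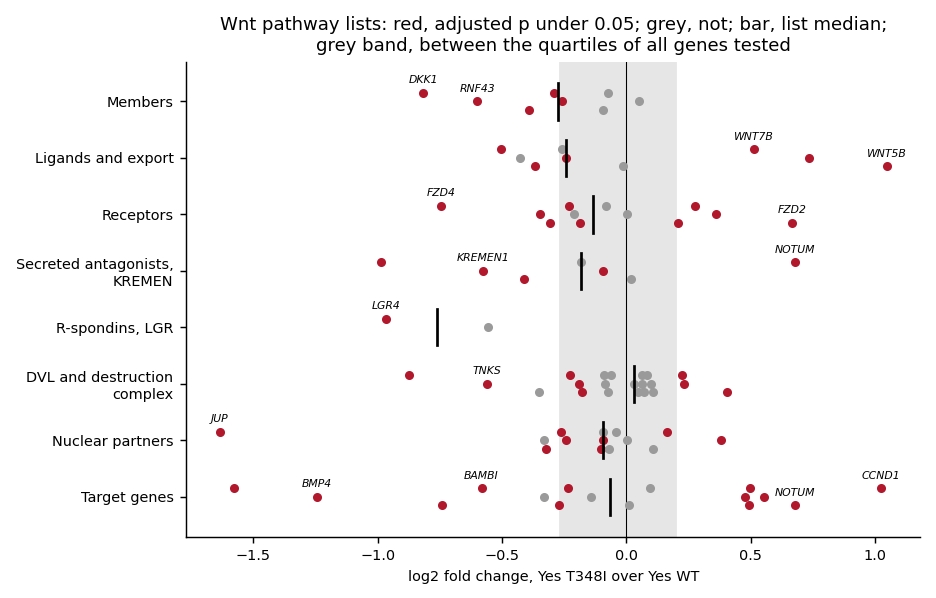
Log2 fold change of Yes T348I over Yes WT (horizontal axis) for the tested genes of each list (rows, vertical offsets within a row only part the points). Red points passed an adjusted p of 0.05, black bars are list medians, the grey band lies between the quartiles of all genes, and genes named by the rule with a change above 0.5 are labelled. Ligands, receptors and target genes have red points on both sides, and the members' red points lie to the left only.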

How the data were processed

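The 6 deposited files hold raw read counts per gene, 1 file per library. Per the submitters' processing notes, CASAVA 1.8.2, Trimmomatic 0.35 and STAR 2.5.1b were used with GRCh38, without roles, and the sources used here do not give the annotation release. Per the labels the kit keeps strand, and the reverse-strand counts were used (forward counts were 6.13% to 6.59% of them). Reads on no gene (6.37% to 6.86% in Yes T348I, 7.40% to 7.87% in Yes WT) or on several genes (3.11% to 3.15%) were left out throughout. The share on no gene was thus lower in every Yes T348I library than in any Yes WT library. Of 58219 identifiers, 41844 had a symbol in the gene name table; positions and exon lengths are from GENCODE 29. In R 4.3.3, edgeR 4.0.16 tested the 14723 genes kept by filterByExpr (minimum count 10) after TMM scaling, by a quasi-likelihood F-test of Yes T348I against Yes WT without covariates, with Benjamini-Hochberg adjustment over all genes. The biological coefficient of variation was 2.83%, and all pairs of libraries within a group differed by more than counting noise (chi-square per degree of freedom 1.48 to 5.21). The members and lists were chosen with earlier results of these data known. Named are the 10 members, YES1, up to 3 genes per list with the lowest adjusted p and at least 1 CPM, and 3 genes most like DKK1. The marker genes, LRP5, AXIN1, TCF7, TCF7L1, RSPO3, WNT10B, WNT5A, WNT3, FRZB, KREMEN2 and the genes at or near 0 were added after their values were seen. So were APC2, APC, TNKS2, RNF146, GSK3A, SLC1A2, CYP2E1, CD44, GLUL, MYC, SOX9, EPHB2 and JUN. Some marker genes are not reported here by name. Alternatives were 3 scalings, 2 filters, DESeq2 1.42.0, limma-voom (limma 3.58.1), the unstranded counts, a replicate block, and leaving out each library.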

Additional observations from a re-analysis of the deposited data

How the results depend on the processing

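Across the 15 alternatives, 5 of the 8 members were lower and none higher in every one. The log2 fold change ranged from -0.86 to -0.78 for DKK1, -0.74 to -0.50 for RNF43, -0.43 to -0.35 for AXIN2, -0.34 to -0.25 for LRP6 and -0.30 to -0.23 for CTNNB1, with adjusted p of at most 0.035, and DKK3, ZNRF3 and TCF7L2 passed in none. Only the 1.5-fold rule moved: 1 member in place of 2 was lower by at least that without a low-count filter or with the unstranded counts, and 1 to 2 when a library was left out, since RNF43 lies near the limit. Of 465 values of 31 named genes, 457 kept direction and side of the threshold and 8 lost the call, all of SFRP1 or NOTUM. Besides the left-out libraries, SFRP1 lost it without a low-count filter (adjusted p = 0.14) and NOTUM with DESeq2 (0.12). With DESeq2 the antagonist list had 0 higher and 2 lower and the nuclear list 2 lower, and without a filter these had 1 and 2 lower. Scaling moved the median of all genes by at most 0.04 on the log2 scale. Replicate numbers did not pair the libraries: deviations of same-numbered libraries correlated at -0.028, 0.0014 and -0.019 across genes, and no library correlated best with its own number. With the replicate number as a block, 4054 genes were higher and 3936 lower, against 4123 and 4024 without it, and the same 5 members were lower. Depth limits RNF43 and AXIN2 most, and NKD1 and LEF1 cannot be compared.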
